A study of Mus musculus with 2 samples.

Results

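The genes described here encode the BCL2 family, the proteins that decide at the mitochondrion whether a cell lives or dies. They were chosen by name as a set of 10 genes, and every probe set that the platform annotation pairs with one of these symbols was taken. That gave 30 probe sets for 9 of the 10 genes, out of 34945 probe sets and 18193 genes with 1 symbol on the array. No probe set carried the symbol Bax, so Bax was not analysed here. Total RNA came from mouse regulatory T cells that dendritic cells had induced in vivo after immunization and that were sorted as CD25 and Foxp3 double positive. One array was made from cells labelled Hopx-sufficient and 1 from cells labelled Hopx-/-, called Hopx-deficient below. Hopx is a small homeodomain protein that acts as a transcription cofactor and does not itself bind DNA. The strain, age and number of mice, the immunogen, the Hopx allele and the time after immunization are not given in the sources used here.

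In this family the survival proteins BCL2, BCL-XL (gene Bcl2l1) and MCL1 hold their killing relatives in check. The BH3-only proteins BIM (Bcl2l11), PUMA (Bbc3), NOXA (Pmaip1), BID and BMF sense stress or loss of growth signals and bind the survival proteins, and some also activate BAX and BAK (Bak1) directly. BAX and BAK then open the outer mitochondrial membrane and release cytochrome c. In regulatory T cells MCL1 is known to be needed for survival, and BIM is known to drive their death when interleukin-2 is short.

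The deposited values are log values that were centred on the mean of the 2 arrays for each probe set, so the pair of values of a probe set are mirror images and hold a difference but no level. All differences below are on a log2 scale, Hopx-deficient minus Hopx-sufficient, and the value of a gene is the mean over its probe sets. The log base is not stated, and 2 was assumed. Each genotype has 1 array, so replicate error is unknown and no test was made. The spread over probe sets of a gene, which share the same 2 RNA samples, is the only error available, and its standard deviation pooled over 9010 genes was 0.18. In such bulk RNA fewer cells of a type and less RNA per cell cannot be told apart.

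The Hopx transcript fit the labels: the array labelled Hopx-/- was 35.4-fold lower (probe sets at -5.43 and -4.86). The 18 probe sets of bacterial spike-ins added at hybridization lay between -0.21 and 0.01. Since the table holds no levels, whether the markers of the sorted cells were present could not be checked. Over all genes 51.4% were above 0. Of T cell markers 5 of 6 were above 0 (median 0.26), and of regulatory T cell markers 5 of 6 (median 0.20). Of the genes of the sort, Foxp3 differed by 0.28, and Il2ra, the 1 regulatory T cell marker below 0, by -0.05. Markers of dendritic cells and macrophages were above 0 in 11 of 12 cases (range -0.10 to 0.94, median 0.37), and all 6 B cell markers were below 0 (range -0.41 to -0.0047). Medians were 0.13 over 5 plasma cell, -0.12 over 5 CD8 T and NK cell and -0.03 over 4 neutrophil markers. The part of these cells in the differences below was not tested.

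As a set, the family differed little between the arrays. Of the 9 genes, 6 were above 0 and 3 below, and the median was 0.19, against 51.4% of all genes above 0 and a median of 0.0082 over all genes. No member was 1.5-fold apart in either direction, a size used here as a rule and not as a test, and 1.57% of all genes were. At a smaller log2 difference of 0.32, 2 members were higher, Bbc3 and Bcl2, and none was lower; 4.36% of all genes were at least that much higher and 6.61% that much lower. Over single probe sets 26 of 30 were above 0, against 50.6% of all probe sets, but probe sets of 1 gene are not independent. A single member probe set was 2-fold apart, and it belongs to Bcl2l11.

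**Figure D1:**
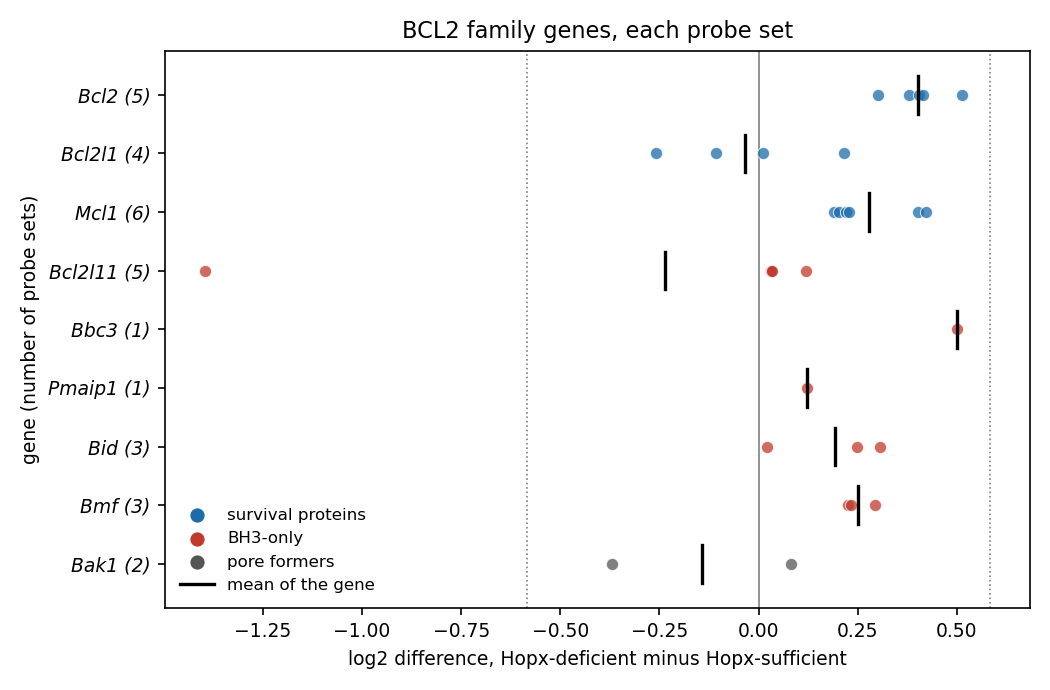
Log2 difference (Hopx-deficient minus Hopx-sufficient) of each of the 30 probe sets of 9 BCL2 family genes, with black bars for the mean of a gene and dotted lines at 1.5-fold. The 5 probe sets of Bcl2 lie between 0.30 and 0.51, while 1 of the 5 of Bcl2l11 lies at -1.40 and the others between 0.03 and 0.12.

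Among the survival genes, Bcl2 and Mcl1 were higher on the Hopx-deficient array by every probe set, and Bcl2l1 was not. For Bcl2, the founding member that keeps resting lymphocytes alive, the deposited values of the probe set that differed most (1437122_at) were -0.26 on the Hopx-sufficient and 0.26 on the Hopx-deficient array. Its 5 probe sets differed by 0.30, 0.38, 0.41, 0.42 and 0.51, which gave a mean of 0.40 ± 0.08 (SD over probe sets), or 1.32-fold. All 5 lay above the highest spike-in (0.01), which is a low bar. The spike-ins had a median of -0.12, and 50.6% of all probe sets lay above 0. The spread of the 5 was narrower than the pooled 0.18. Bcl2 ranked 362nd from the highest of all 18193 genes, with 1.99% of genes at or above it. Averages over several probe sets vary less than single ones, so genes with 3 or more probe sets are the closer comparison. Among those 4315 genes Bcl2 ranked 31st from the highest, and 0.718% were at or above it. Of the 463 genes that also have 5 probe sets, 1.08% were at or above Bcl2.

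Mcl1 encodes a short-lived survival protein that T cells depend on at most stages. Its 6 probe sets fell into a lower group of 4, between 0.19 and 0.23, and an upper pair at 0.40 and 0.42. Without probe sets of suffix _s_at or _x_at, which can also match other transcripts, 3 were left, with a mean of 0.35. The gene mean was 0.28 ± 0.11 (SD over 6 probe sets), or 1.21-fold, and 3.94% of genes with 3 or more probe sets were at or above it. The deposited values of its most different probe set (1448503_at) were -0.21 and 0.21. Rounding steps left in the deposited numbers place 4 of the 6 probe sets at an uncentred log value of 8 or above. This holds for at least 1 of the 2 arrays. The uncentred scale was assumed, and not observed, to run from 2 to 16. Of all probe sets with 1 symbol, 1.35% could be placed that high, although the steps leave most probe sets without such a bound.

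Bcl2l1, whose main product BCL-XL is induced when T cells are activated, did not share this direction. Its 4 probe sets differed by -0.26, -0.11, 0.01 and 0.21, with a mean of -0.03 ± 0.20 (SD over probe sets). That spread was larger than the mean, so no direction can be given for Bcl2l1. The probe sets of Bcl2 (lowest 0.30) did not overlap those of Bcl2l1 (highest 0.21). How often the probe sets of 2 genes fail to overlap on this array was not counted, so no result rests on this. The steps place 2 of the 4 Bcl2l1 probe sets below 8 on at least 1 array, and none of those of Bcl2 could be placed.

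The promoters of Bcl2 and Mcl1 are shown because these were the members that were higher by 5 and 6 probe sets. They are the 250 bases before the start of each gene in RefSeq's GRCm38.p6 annotation. The Bcl2 stretch is chr1:106714291-106714540, minus strand, with GC boxes (GGGCGG or CCGCCC) in capitals. The Mcl1 stretch is chr3:95658471-95658720, plus strand, with the letters CCGGAAG of an ETS factor motif in capitals.
Bcl2: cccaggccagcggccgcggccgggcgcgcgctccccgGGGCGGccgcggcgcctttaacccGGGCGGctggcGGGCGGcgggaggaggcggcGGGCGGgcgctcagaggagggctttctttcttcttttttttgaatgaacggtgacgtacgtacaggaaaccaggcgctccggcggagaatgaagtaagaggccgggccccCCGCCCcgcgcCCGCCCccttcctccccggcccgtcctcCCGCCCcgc
Mcl1: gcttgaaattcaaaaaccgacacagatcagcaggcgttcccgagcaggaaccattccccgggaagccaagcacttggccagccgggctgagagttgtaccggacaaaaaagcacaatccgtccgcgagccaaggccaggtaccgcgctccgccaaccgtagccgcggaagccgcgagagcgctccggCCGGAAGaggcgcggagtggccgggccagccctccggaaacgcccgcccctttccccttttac
The Bcl2 stretch holds 7 GC boxes. The Mcl1 stretch holds 1 ETS match 63 bases before the start and also 1 GC box, 20 bases before the start and left in lower case. GC boxes are common: 35.7% of 32851 mouse promoters of 300 bases hold at least 1. Of the 16 such promoters listed for 9 members, 10 hold at least 1, and these belong to 7 members. The ETS letters (CCGGAAG or CTTCCGG) occur in 8.86% of all promoters.

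Of the 5 BH3-only genes, which promote death, 4 were above 0 and Bcl2l11 was below it by its mean (median of the 5 genes 0.19). Over all genes 51.4% were above 0. Bbc3 encodes PUMA, which is induced by p53 and, when growth factors are lost, by FOXO factors, and it was the highest member. Its single probe set, 1423315_at, had deposited values of -0.25 on the Hopx-sufficient and 0.25 on the Hopx-deficient array, a difference of 0.50 or 1.42-fold. Of the 9183 genes that also have 1 probe set, 1.02% were at or above that value. No second probe set checks it. The steps place its signal below 8 in the uncentred log values on at least the lower, Hopx-sufficient array.

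Bmf encodes a BH3-only protein that binds the dynein light chain DYNLL2. Its 3 probe sets agreed closely, at 0.23, 0.23 and 0.29, with a mean of 0.25 ± 0.04 (SD over probe sets), or 1.19-fold. The steps place 2 of the 3 below 8 on at least 1 array. Without _s_at and _x_at probe sets 1 was left for Bmf, at 0.23. Among genes with 3 or more probe sets, 5.45% were at or above Bmf. Bid encodes a protein that caspase-8 and granzyme B cut into an active form, and its probe sets stood at 0.02, 0.25 and 0.31 (mean 0.19 ± 0.15). Pmaip1, which encodes NOXA, which binds chiefly MCL1, differed by 0.12 by its single probe set, and 25.5% of all genes were at or above it. For Bid 10.1% of genes with 3 or more probe sets were at or above it. The Pmaip1 probe set and 1 of the 3 of Bid were placed below 8 on at least 1 array.

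Bcl2l11 gave the largest disagreement of the set. Its product BIM binds every survival protein and is spliced into several forms. Probe set 1426334_a_at had deposited values of 0.70 on the Hopx-sufficient and -0.70 on the Hopx-deficient array, a difference of -1.40, or 2.63-fold lower. It was the 18th lowest of the 34945 probe sets, of which 0.14% were at least 2-fold lower. The other 4 probe sets (1435449_at, 1456006_at, 1435448_at and 1456005_a_at) differed by 0.03, 0.03, 0.03 and 0.12. Their mean was 0.05, so the gene mean of -0.24 rests on 1 probe set, and the median over the 5 was 0.03. The spread was 0.65 (SD over probe sets), against the pooled 0.18.

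This disagreement was rare on the array. The range over the probe sets of Bcl2l11 was 1.52, while the median range of the 463 genes with 5 probe sets was 0.39; 1 of the 463, Bcl2l11 itself, reached 1.52. Of the 4315 genes with 3 or more probe sets, 4, or 0.0927%, had 1 probe set at least 2-fold apart while the median of the others lay within 0.1 of 0. Bcl2l11 was 1 of these 4, but this rule was not planned and follows the pattern of Bcl2l11. Its place among the 4 is therefore no independent result. The suffix _a_at marks a probe set designed against several transcripts of 1 gene, and 1 of the 4 concordant probe sets carries it too. Where on the transcripts each probe set lies was not analysed here, and the cause of the disagreement was not tested.

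**Figure D2:**
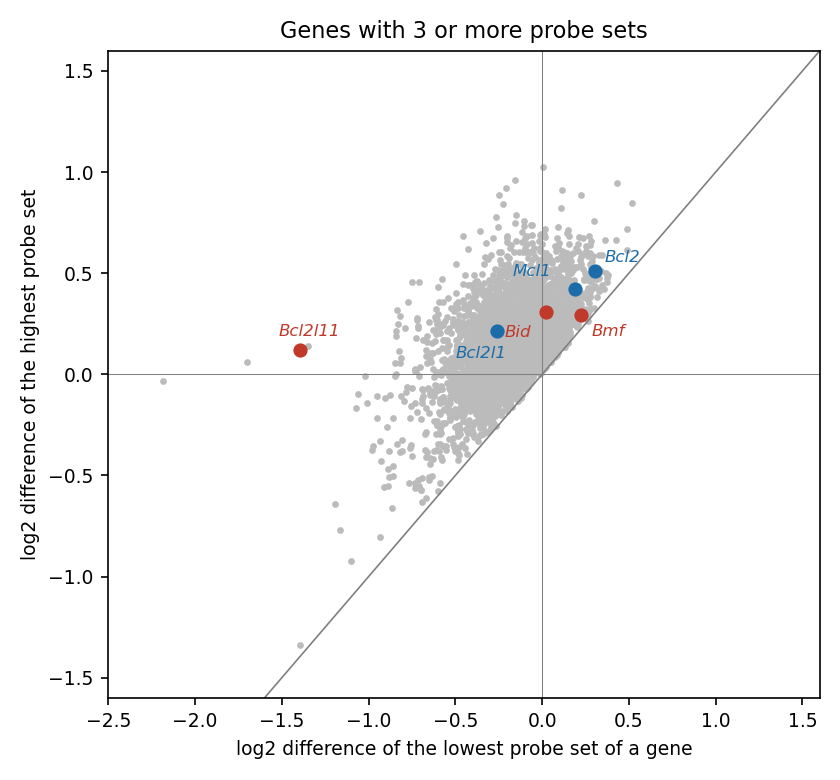
Log2 difference of the lowest (horizontal) against the highest (vertical) probe set of each of the 4315 genes with 3 or more probe sets, with the BCL2 family members in colour and a line where both are equal. Bcl2, Mcl1, Bmf and Bid lie to the right of 0 on the horizontal axis, and Bcl2l11 lies far from the diagonal, at -1.40 and 0.12.

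The probe set groups of the 6 members with 3 or more probe sets can be read together. All probe sets were above 0 for 4 of the 6 (Bcl2, Mcl1, Bid and Bmf) and all below 0 for none. Over all genes with 3 or more probe sets, 17.5% had every probe set above 0 and 16.1% every one below.

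The promoter stretches of Bcl2l11 and Bbc3 are shown because both genes are known targets of FOXO factors and both hold the FOXO letters GTAAACA or their reverse complement TGTTTAC, in capitals. The Bcl2l11 stretch is the 250 bases before the more upstream of its 2 listed starts (chr2:128125788-128126037, plus strand). The Bbc3 stretch is 30 bases around the match, which begins 167 bases before 1 of its 3 listed starts (chr7:16310083-16310112, plus strand).
Bcl2l11: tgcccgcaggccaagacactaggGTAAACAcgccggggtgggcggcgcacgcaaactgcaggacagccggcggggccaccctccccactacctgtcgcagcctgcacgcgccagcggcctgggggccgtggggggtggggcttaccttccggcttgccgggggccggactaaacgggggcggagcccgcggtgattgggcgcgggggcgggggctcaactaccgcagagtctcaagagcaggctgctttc
Bbc3: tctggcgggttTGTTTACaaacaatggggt
In Bcl2l11 the match begins 227 bases before the start. Of all promoters of this length 3.65% hold these letters. Bbc3 differed by 0.50 and 4 of the 5 Bcl2l11 probe sets by 0.12 or less. A role of FOXO factors in these values was not tested. Promoters were found for 9 of the 10 members, all but Pmaip1, with 16 windows in all. In these windows no match was found to the AP-1 letters TGANTCA, the STAT letters TTCNNNGAA or the CArG box of serum response factor, which occur in 7.81%, 8.3% and 1.63% of all promoters. The E-box CACGTG (7.15% of promoters) matched in Bax and Bbc3, the p53 half-site (8.36%) in Bax and Bmf, and the ETS letters also in Bcl2l1 and Bcl2l11. Both strands were searched, and no match overlapped one of another of the 8 motifs. A match is a string of letters and not a shown binding site.

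Of the pore-forming pair, Bak1 alone had probe sets, and they disagreed. Bak1 encodes BAK, which sits in the outer mitochondrial membrane and is restrained there by MCL1 and BCL-XL. Probe set 1418991_at differed by -0.37 and 1425716_s_at by 0.08, with a mean of -0.14 ± 0.32 (SD over 2 probe sets). The suffix _s_at marks a probe set that can also match other transcripts. No direction can be given for Bak1 from these values.

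**Figure D3:**
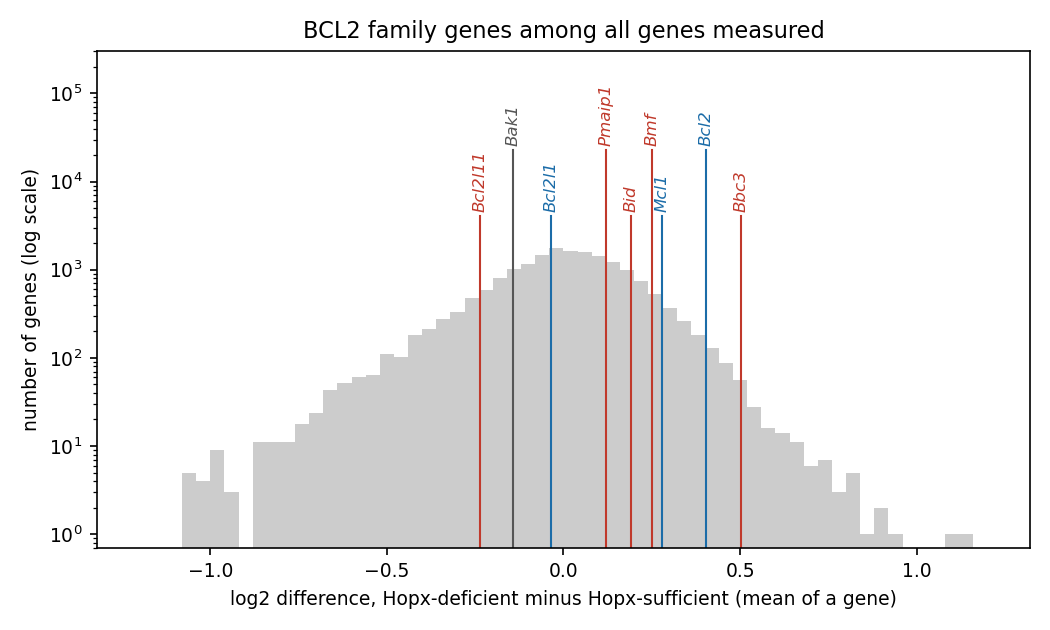
Number of genes (log scale) by mean log2 difference, Hopx-deficient minus Hopx-sufficient, with coloured lines for the 9 BCL2 family genes; 16 genes beyond 1.2 in either direction are not drawn. Bbc3 (0.50) and Bcl2 (0.40) lie furthest to the right, and Bcl2l11 (-0.24, from 1 of its 5 probe sets) furthest to the left.

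Other members of the BCL2 family stayed close to 0. Of 15 listed, Bcl2a1a, Bcl2a1b, Bcl2a1d and Bnip3l had no probe set with 1 symbol. Of the 11 measured, 6 were above and 5 below 0, the median was 0.07, and none was 1.5-fold apart. That median was -0.03 over 15 genes once probe sets of several symbols were added. It was -0.06 over the 7 genes left without probe sets placed below 8. In the main setting, no direction stood out. The most different of the 11 were Bcl2l15 (0.27), Bcl2l13 (-0.16), which encodes a mitochondrial protein, and Bcl2l12 (-0.14). The survival gene Bcl2l2, which encodes BCL-W, differed by 0.12, and the BH3-only genes Bad, Bik and Hrk by -0.06, -0.06 and 0.07; these 4 were chosen after their values were seen.

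The next list covers steps downstream of the mitochondrion. Of 19 genes of the apoptosome, caspases, inhibitors of apoptosis and mitochondrial death proteins, 12 were below 0 and 7 above, with a median of -0.10; of all 18193 genes 8617 were below 0. Endog, the mitochondrial nuclease endonuclease G, differed by -0.58, just short of 1.5-fold, with probe sets at -0.67 and -0.49, and it passed 1.5-fold once the median difference was subtracted. Cycs, cytochrome c, differed by -0.41, with 4 probe sets between -0.57 and -0.11. Birc3, an inhibitor of apoptosis induced by NF-kB, differed by 0.27. Apaf1, which binds cytochrome c to build the apoptosome, differed by -0.10 and Casp9, the caspase it activates, by -0.05; these genes were chosen after their values were seen. No gene of this list was 1.5-fold apart.

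Death receptor genes, the other route into apoptosis, had a median of 0.05 over 11 genes. Of these, 9 were above 0, against 51.4% of all genes. Fasl, the ligand of FAS, differed by -0.37, Casp8, the initiator caspase that cuts BID, by 0.19, and the adaptor gene Fadd by -0.17. None was 1.5-fold apart.

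Genes linked to FOXO factors were mostly higher. Of 16 FOXO factors and FOXO-linked genes, 15 were above 0, against 51.4% of all genes, and the median was 0.36. At least 1.5-fold higher were 3, as 0.313% of all genes were, and none was 1.5-fold lower. The 3 were the cyclin G2 gene Ccng2 (0.82), the PI3-kinase inhibitor gene Pik3ip1 (0.62) and the antiproliferative gene Btg1 (0.60). Btg1 passed 1.5-fold through 1 of its 3 probe sets (0.95); its median over them was 0.43, which left 2 genes. Foxo1 and Foxo3 themselves differed by 0.11 and 0.16, values chosen after they were seen. This list was drawn up with the direction of such genes in these arrays already known, so its direction is no independent result. Bbc3 (0.50) lay above the median of that list and Bcl2l11 (-0.24, or 0.05 without 1426334_a_at) below it. Whether FOXO factors act on either gene in these cells was not tested.

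The p53 pathway, which induces Bbc3, Pmaip1 and Bax after DNA damage, had a median of 0.07 over 19 genes. Of these, 13 were above 0, against 51.4% of all genes. The most different of the 19 were the stress gene Gadd45a (0.50), the sestrin gene Sesn1 (0.47) and Btg2 (0.41). The p53 targets Cdkn1a, encoding p21, and Mdm2, encoding the ligase that degrades p53, differed by -0.11 and 0.04, and these were chosen after their values were seen. No gene of this list was 1.5-fold apart.

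Cytokine signals that keep T cells alive, chiefly from interleukin-2 through STAT5, had a median of 0.08 over 17 genes. Of these, 12 were above 0, against 51.4% of all genes. Socs3, a feedback inhibitor of cytokine receptors, differed by 0.35, the transcription factor gene Myb by 0.32 and Pim1, a survival kinase gene induced by STAT5, by 0.30. Stat5a and Stat5b differed by 0.15 and 0.11 (chosen after their values were seen), and no gene of the list was 1.5-fold apart.

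Genes whose products bind, modify or degrade BCL2 proteins had a median of -0.03 over 20 genes. Of these, 9 were above 0, against 51.4% of all genes. Gzmb, the granzyme B gene, was the only member of this list at least 1.5-fold apart. It was 4.45-fold lower (-2.16) by 1 probe set. The steps place that probe set below 8 on at least the lower, Hopx-deficient array, and the Hopx-sufficient value may be above 8. Bid, whose product granzyme B cuts, differed by 0.19. Other genes given here were chosen after their values were seen. Dynll2, which encodes the light chain that binds BMF, differed by -0.43, with probe sets at -0.71 and -0.16. For the genes that set the stability of MCL1, the differences were 0.11 for the ligase gene Huwe1, -0.14 for Fbxw7 and 0.00078 for the deubiquitinase gene Usp9x.

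**Figure D4:**
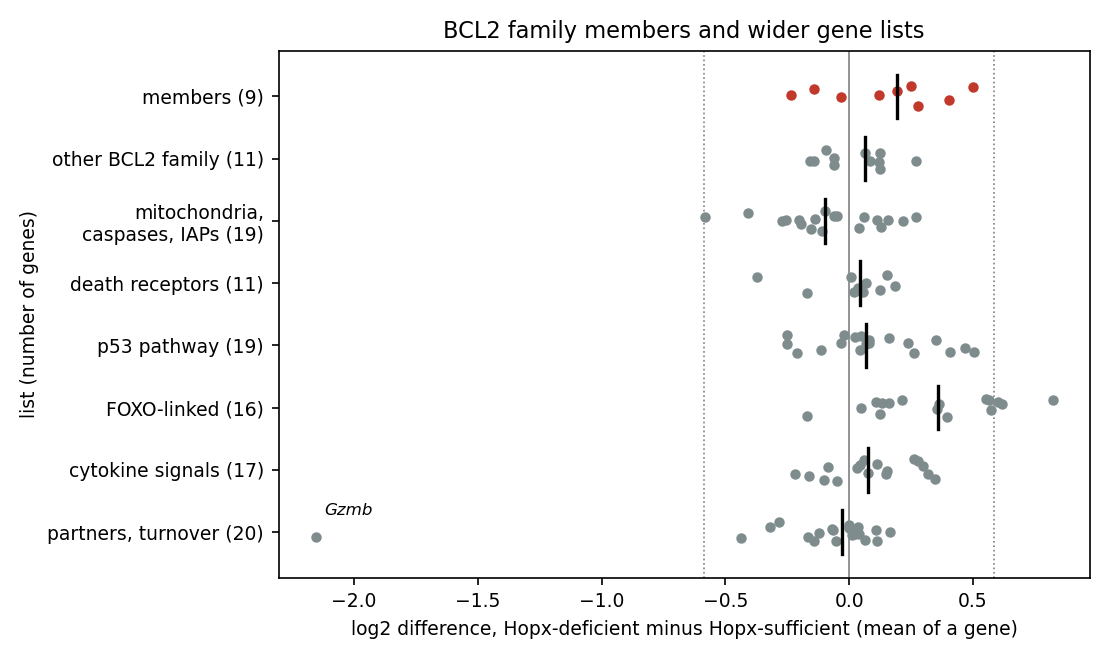
Mean log2 difference (Hopx-deficient minus Hopx-sufficient) of each gene in the BCL2 family set and in 7 wider lists, with bars at the medians, dotted lines at 1.5-fold and the number of genes in brackets; points are spread vertically for legibility only. The median is 0.19 for the BCL2 family set, 0.36 for the FOXO-linked list and -0.10 for the list of mitochondrial proteins, caspases and inhibitors of apoptosis.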

How the data were processed

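Biotin-labelled RNA of 2 samples, 1 per genotype, was hybridised to single-colour arrays of 45101 probe sets, with groups taken from the sample titles. The authors deposited log values, taken here as log2, from which the mean of both arrays had been subtracted probe set by probe set (tested on the table: the largest absolute row sum was 1e-06). Summarisation, normalization and log base are not given in the sources used here; with natural logs every difference would be 1.44 times larger. Differences were taken as deposited, with no further centring (median difference 0.0075), and averaged over the probe sets of a gene. Symbols came from the platform annotation of 2016 and were updated by gene ID through a GRCm38.p6 table, where 34741 of 34945 IDs were found. Probe sets with several symbols (932) were left out; none of them named a member.

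The centred numbers are single-precision, so their smallest step, or the rounding left in the sum of a mirrored pair, bounds the uncentred value: below 4, below 8, or at 8 or above. This assumes centring in single precision. A bound below 4 or 8 holds for at least the lower array, and 8 or above for at least the higher. Of the 30 member probe sets 8 were placed below 8, none below 4, 4 at 8 or above, and 18 could not be placed. Differences, calls and bounds were tested on simulated arrays. A fold of 1.5 was a rule of size, and the number of arrays limits the precision.

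Members and lists were chosen with earlier results of these data known. Named were every member, and of each of 7 lists the genes at least 1.5-fold apart or otherwise the 3 most different; 7 marker lists are given by their medians and counts. With 2 arrays each pattern is 1 difference, so no gene was named as alike. Alternatives were centring, the median or most different probe set, fewer or more probe sets, natural logs and thresholds of log2 0.32 and of 2-fold. Python 3.11.15, numpy 2.4.6, pandas 2.3.3 and matplotlib 3.10.9 were used.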

Additional observations from a re-analysis of the deposited data

How the results depend on the processing

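No paired analysis was possible because there is a single array of each genotype, which also means that none could be omitted. Across 9 other settings and 2 chosen after seeing the data, 335 of 362 values kept within the spread between probe sets (or, for counts, within 1.5 times), and none past 1.5-fold changed sign. Of the members, Bcl2l11 changed sign, to 0.032 by the median over probe sets and 0.054 without 1426334_a_at. With the most different probe set for each gene, Bcl2l11 was at -1.40, Bcl2l1 at -0.26 and Bak1 at -0.37, 1 member was 1.5-fold lower, and 5 genes of the wider lists were higher and 3 lower, against 3 and 1 as reported. Without _s_at and _x_at probe sets Bak1 was at -0.37, and 2 wider genes were lower, as also after centring. With natural logs Bbc3 was at 0.72 and was the 1 member 1.5-fold higher, and 9 wider genes were higher and 4 lower. At a log2 difference of 0.32, 2 members were higher, and 14 wider genes were higher and 5 lower; at 2-fold 0 wider genes were higher. Without probe sets placed below 8, Bbc3, Pmaip1, Gzmb, Gadd45a and Bcl2l15 had no value, and the 1 wider gene 1.5-fold lower was then Endog (-0.67) in place of Gzmb. With no levels in the table, signal over background could not be given.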
